A study of Mus musculus with 4 samples.

Results

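The genes described here are 41 genes of mitosis and the G2/M transition. They were chosen by name for their known roles in entering, running and leaving mitosis, with earlier results of these data known. Of the 41 genes, 40 had probes of their own among the 27670 genes on the array, and Kifc1 shared its probes with Kifc5b. The study fed male C57BL/6J mice for 4 weeks, from 7 weeks of age, a purified control diet holding 0.03% nucleic acids or a diet with 1.2% of a nucleoprotein product that brought nucleic acids to 0.5%. Every mouse then received lipopolysaccharide (LPS), a bacterial surface molecule that provokes inflammation throughout the body, as a single dose of 10 mg/kg, and organs were taken 6 h later. Liver and spleen RNA was pooled by diet and hybridised to 4 Agilent 2-colour arrays, 2 per organ, each carrying the nucleoprotein pool in one dye and the control pool in the other, with the dyes exchanged between array 1 and array 2 of an organ. No mice without LPS were analysed here, so every value below belongs to mice given LPS, and the labels also mention a standard chow whose place in the feeding schedule they do not settle.

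Cells enter mitosis when the kinase Cdk1, bound to a B-type cyclin, becomes active, and polo and aurora kinases then drive spindle assembly and chromosome capture. A checkpoint holds sister chromatids together until every kinetochore is attached, after which the anaphase-promoting complex, with its activator Cdc20, destroys securin and cyclin B. These genes are transcribed mainly in late cell cycle, through promoters that often carry CCAAT boxes and a cell cycle genes homology region (CHR), so in a tissue their transcripts track the dividing cells. In the spleen dividing cells are mostly lymphoid and erythroid precursors, whereas most hepatocytes of an adult liver are quiescent.

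Values are log2 ratios of the nucleoprotein pool over the control pool, or log2 intensities where a level is meant, and each ± is the SD over the 2 arrays of an organ. A gene counted as measurable in an organ when, in at least 1 diet, both arrays showed a signal well above background, and as called when both arrays passed 1.5-fold (a log2 ratio of 0.58) in a common direction. The labels number pooled samples 1 and 2 without saying whether both arrays of an organ held the same pools, so the 2 arrays were taken as a technical dye swap of 1 pool per diet and organ, the SD covers array and dye error and not the spread between mice, and no p-value is given. In pooled tissue RNA, fewer dividing cells and less of a transcript per dividing cell cannot be told apart. On each array 55.2% to 72.8% of gene spots in a channel were well above background and 0 were saturated. The organ labels matched their markers, since albumin (Alb) had a mean level of 15.59 in liver and 8.92 in spleen and the B cell antigen Ms4a1 had 14.11 in spleen and 7.07 in liver.

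The only gene of the set that was called rests on a pair of 60-base probes, which are shown because they bear on which gene the value belongs to. The array's annotation names both probes Kifc1, but lists a RefSeq accession that the RefSeq gene table (GRCm38.p6) holds as Kifc5b, a close copy of Kifc1, and a second accession that the table does not hold. The arrays can therefore not assign the signal to either gene, and the pair is written Kifc5b/Kifc1 below. The array design places the representing probe at chr17:25116898-25116950 and the second probe at chr17:25110675-25111054, a span longer than the probe itself, both on the plus strand of build mm7, and no annotation of that build was used here to say which exon they lie in. In GRCm38.p6 the promoter window of Kifc5b lies on the plus strand, at chr17:26916841-26917140. That of Kifc1 lies on the minus strand, at chr17:33890584-33890883. The strand in the array design is thus that of Kifc5b. Whether transcripts of Kifc1 also bind the probes was not tested. The probe letters are as in the array files.
Kifc5b/Kifc1, representing probe: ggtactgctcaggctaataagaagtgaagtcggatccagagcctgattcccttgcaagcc
Kifc5b/Kifc1, second probe: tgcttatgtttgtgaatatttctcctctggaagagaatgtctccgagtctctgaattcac

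The promoters of the set shared sequence features that the choice of genes did not use. RefSeq promoter windows of 300 bases (250 before to 50 after the start, GRCm38.p6) were found for 34 of the genes, in 36 windows, and no entry was matched for Kif20a, Foxm1, Aurkb, Cdc25c, Tpx2, Ccna2 or Incenp. The CHR, read as TTTGAA or as TTCGAA on either strand, was present in 28 of 36 windows (77.8%), against 19.2% of all 32851 windows in the table. CCAAT on either strand was present in 28 of 36 windows (77.8%) against 37.4% of all, and at least 2 copies in 19 of 36 (52.8%) against 11.7%. Both motifs together were found in 26 of 36 windows (72.2%) against 7.52% of all. These are matches of letters in a fixed window, not mapped binding sites, and their relation to the diet ratios was not tested. The windows of Mad2l1, Nusap1, Nuf2, Plk4 and Birc5, all below 0 on both spleen arrays, held 0 CHR and 0 CCAAT matches. The window of Pttg1, with spleen ratios of 0.15 and -0.22, also held 0 of each. For Kifc5b/Kifc1, above 0 on both spleen arrays, the Kifc5b window held 1 CHR and 2 CCAAT matches and the Kifc1 window 1 and 3. The windows of Cdk1, Ccnb2 and Plk1 are shown as examples that carry both motifs. They lie at chr10:69352863-69353162 (minus strand), chr9:70421505-70421804 (minus strand) and chr7:122159185-122159484 (plus strand), are written 5′ to 3′ along the gene, and have CHR and CCAAT matches in capitals, a match on the opposite strand appearing as its reverse complement ATTGG.
Cdk1: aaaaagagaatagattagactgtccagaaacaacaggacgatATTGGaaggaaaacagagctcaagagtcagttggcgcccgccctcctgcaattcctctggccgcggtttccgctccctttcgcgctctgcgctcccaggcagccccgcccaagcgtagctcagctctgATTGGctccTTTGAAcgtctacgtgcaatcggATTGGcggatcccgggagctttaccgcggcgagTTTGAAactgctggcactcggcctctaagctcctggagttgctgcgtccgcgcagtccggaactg
Ccnb2: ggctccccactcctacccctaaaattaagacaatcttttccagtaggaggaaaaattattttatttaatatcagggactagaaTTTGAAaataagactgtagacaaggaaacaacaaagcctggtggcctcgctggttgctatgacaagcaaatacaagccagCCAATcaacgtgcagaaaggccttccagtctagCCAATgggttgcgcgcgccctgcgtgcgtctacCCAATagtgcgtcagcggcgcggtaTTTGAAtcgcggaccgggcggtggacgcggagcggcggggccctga
Plk1: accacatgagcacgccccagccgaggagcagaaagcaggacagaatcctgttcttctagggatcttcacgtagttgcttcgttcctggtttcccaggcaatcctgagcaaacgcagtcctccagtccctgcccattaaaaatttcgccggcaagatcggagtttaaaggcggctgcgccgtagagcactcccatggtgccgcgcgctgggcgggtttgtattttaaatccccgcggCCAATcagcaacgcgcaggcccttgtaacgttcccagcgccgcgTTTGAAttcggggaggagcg
The Cdk1 window held 2 CHR and 3 CCAAT matches, with its CHR matches starting at -71 and -15 from the start. The Ccnb2 window also held 2 and 3, and its 3 CCAAT boxes began at -87, -54 and -21, so they were evenly spaced. The Plk1 window held 1 of each, CCAAT at -14 and CHR at 31 bases past the start.

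In spleen, transcripts of the mitotic machinery stood slightly lower with the nucleoprotein diet, by far less than the fold that counted as a call, and Kifc5b/Kifc1 alone stood higher. Of the 40 genes, 39 were measurable in spleen, all in both diets, and the checkpoint kinase Ttk was not. The ratio was below 0 on both arrays for 30 of 39 genes, against a background of 19.9% of the 18150 genes measurable in spleen, and above 0 on both arrays for 1, against 20.4%. The mean of both arrays was below 0 for 38 of 39, against 50.2% of all genes. The median over the set was -0.13 (-0.06 on array 1 and -0.19 on array 2), while the median over all genes was -0.0004. Without Kifc5b/Kifc1 the means ran from -0.26 to -0.0052, at most a 1.19-fold difference. The call rule took 1 gene of the set as higher, with a background of 0.215% of all genes, and 0 as lower, with a background of 0.226%.

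The direction was more alike across the set than the size of any member's ratio. The SD of the 2 arrays was smaller than the distance of the mean from 0 for 22 genes and larger for 17. Array 2 gave the lower ratio for 30 of 39 genes, against 55.9% of all genes, and the dyes were exchanged between the arrays. Over the 38 genes other than Kifc5b/Kifc1, the ratios on array 1 and array 2 had a Pearson r of -0.54 and a Spearman rho of -0.43, as a description across genes that share both arrays and are not independent. The order of members within the set was therefore not repeated between arrays. Of 13 further measurable probes to genes of the set, those to Kifc5b/Kifc1 left aside, 12 had a mean below 0. The exception was a Nusap1 probe, with -0.08 and 0.10. Some of the 12, such as a Cenpe probe with 0.02 and -0.15, were above 0 on 1 array. With each array centred on its median in place of the intensity-dependent correction, the set's median was 0.51 on array 1 and -0.70 on array 2, so that 0 of 39 genes were below 0 on both arrays, against 3.06% of all genes. Under that scaling the mean over both dye orientations stayed below 0 for 38 of 39 genes, against 47.8% of all genes, with a median of -0.12. The split of all spleen calls was 39 higher and 41 lower, and 30 higher and 10 lower under median centring.

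**Figure D1:**
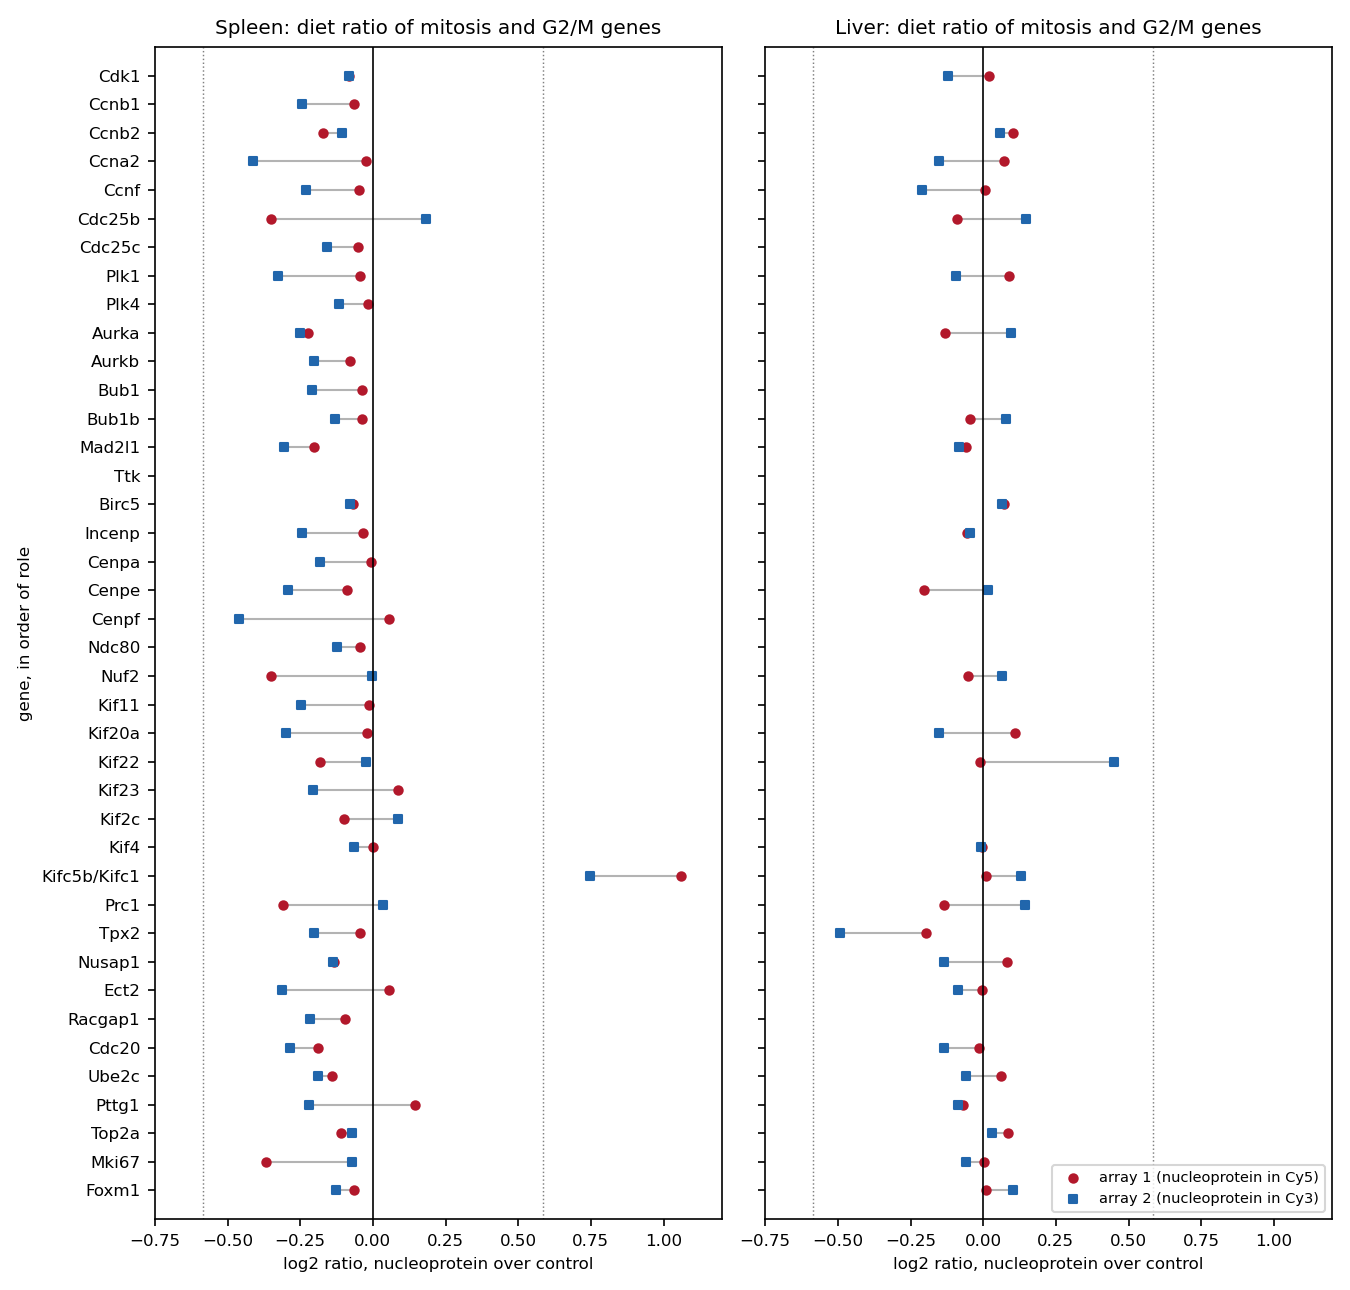
Log2 ratio of nucleoprotein over control for each gene of the set in spleen and liver, ordered by role, with array 1 as circles and array 2 as squares and dotted lines at 1.5-fold. In spleen nearly all points lie a little left of 0 and Kifc5b/Kifc1 lies past the right-hand line on both arrays. In liver the points scatter around 0, and genes not measurable in an organ have no points.

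Kifc5b/Kifc1 belong to the minus-end directed kinesins that focus spindle poles. In spleen the representing probe had levels of 7.06 and 7.05 in the control pool and 8.12 and 7.79 in the nucleoprotein pool. Both nucleoprotein channels were above both control channels, and the ratios were 1.06 and 0.75, a mean of 0.90 ± 0.22 or 1.87-fold. The second probe gave 0.76 and 0.61 in spleen, so both probes passed the bound on both arrays. In liver the levels were 6.84 and 6.76 with control and 6.85 and 6.89 with nucleoprotein, and the ratios of 0.01 and 0.13 averaged 0.07 ± 0.09. The spleen and liver ratios did not overlap, and the difference between organs was not tested. The spleen mean was 1.16 with a smaller background offset, 1.35 from the authors' deposited log ratio and 0.79 as the median over probes. Under median centring the mean was 0.93, but the gene was not called. Among 18 other measurable genes with probes within 500 kb on the mm7 chromosome 17, a window chosen after this value was seen, spleen means ran from -0.22 to 0.11 and 0 were called.

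Among the kinases and cyclins of mitotic entry, 6 of 7 were below 0 on both spleen arrays, with means from -0.22 to -0.08. Cdk1, the mitotic kinase itself, had ratios of -0.08 and -0.08. Its partner Ccnb1 had -0.07 and -0.25, and the second B-type cyclin Ccnb2 had -0.17 and -0.11. All of these lay below 0 without passing the bound. Ccna2, the cyclin of S phase and G2, had -0.02 on array 1 and -0.41 on array 2, so its mean of -0.22 ± 0.28 was smaller than its SD. Ccnf had -0.05 and -0.23, and the phosphatase Cdc25c, which frees Cdk1 from inhibitory phosphates, had -0.05 and -0.16. The related phosphatase Cdc25b was the exception of the group, with -0.35 on array 1 and 0.18 on array 2.

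All 4 polo and aurora kinases were below 0 on both spleen arrays, with a median of -0.16. Aurka, which matures centrosomes and spindle poles, was among the lowest of the whole set and had closely matching arrays, -0.22 and -0.25 (mean -0.24 ± 0.02). Aurkb, the catalytic subunit of the chromosomal passenger complex, had -0.08 and -0.20. Plk1, which acts from mitotic entry to cytokinesis, had -0.04 and -0.32, and Plk4, which starts centriole duplication, had -0.02 and -0.12. The passenger subunits Birc5 (survivin) and Incenp had -0.07 and -0.08, and -0.03 and -0.24. The arrays thus matched closely for Aurka and Birc5 and were far apart for Plk1 and Incenp.

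The spindle checkpoint genes measurable in spleen, 3 of the 4 chosen, were all below 0 on both arrays. Mad2l1, which binds Cdc20 to hold back anaphase, had the lowest mean of the set, with -0.20 and -0.31 (mean -0.26 ± 0.07), a 1.19-fold difference. Bub1 had -0.04 and -0.21, and Bub1b (BubR1), a part of the inhibitory checkpoint complex, had -0.04 and -0.13. Cdc20, the target of that complex, also stood among the 3 lowest means, with -0.19 and -0.28 (mean -0.24 ± 0.07). Ube2c, the ubiquitin-conjugating enzyme that works with the anaphase-promoting complex, had -0.14 and -0.19. Securin (Pttg1), the substrate whose loss frees separase, had 0.15 and -0.22 and so no common direction.

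Of the 5 kinetochore genes, 4 were below 0 on both spleen arrays, with means from -0.20 to -0.08. Cenpa, the histone H3 variant of centromeres, had -0.0064 and -0.18. The kinetochore motor Cenpe had -0.09 and -0.29, and Ndc80, of the complex that grips microtubules, had -0.04 and -0.12. Its partner Nuf2 had -0.35 on array 1 and -0.0020 on array 2, and Cenpf had 0.05 and -0.46. The members with the widest gap between arrays here, Cenpf and Nuf2, differed in opposite directions. The 7 kinesins measured were the most mixed group, with 3 below 0 on both arrays. Kif11, the motor that pushes spindle poles apart, had -0.01 and -0.25, Kif20a, a motor of the central spindle, had -0.02 and -0.30, and the chromosome-arm motor Kif22 had -0.18 and -0.02. Kif4, which binds chromosome arms, had 0.0014 and -0.06, and the microtubule-depolymerising Kif2c had -0.10 and 0.09. Apart from Kifc5b/Kifc1 these were the highest means of the set, -0.03 ± 0.05 for Kif4 and -0.0052 ± 0.13 for Kif2c. Kif23, the motor subunit of centralspindlin, had 0.09 and -0.20.

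In the group of spindle and cytokinesis genes, 3 of 5 were below 0 on both spleen arrays and the 5 means lay closely together, from -0.16 to -0.12. Nusap1, a microtubule-bundling protein, had -0.13 and -0.14, but its second probe had -0.08 and 0.10. Tpx2, the activator of aurora A on the spindle, had -0.05 and -0.20, and Racgap1, the other subunit of centralspindlin, had -0.10 and -0.22. Prc1, which bundles the antiparallel microtubules of the midzone, had -0.31 on array 1 and 0.04 on array 2. Ect2, the exchange factor for the contractile ring, had 0.06 and -0.31, the reverse order. The chromosome genes Top2a, which untangles sister chromatids, and Mki67, the common proliferation marker, had -0.11 and -0.07, and -0.37 and -0.07. Foxm1, a transcription factor that drives G2/M genes, had -0.06 and -0.13. All 3 of these lay below 0 on both arrays.

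The wider cell cycle lists, chosen like the set with earlier results of these data known, also had medians of the mean ratio below 0 in spleen, and their counts stand against the same 19.9% of all genes below 0 on both arrays. Among 103 other measurable mitosis and G2/M genes 46 (44.7%) were below 0 on both arrays, with a median of -0.08 and 0 called. Among 55 genes of DNA replication and S phase 28 (50.9%) were below 0 on both arrays, with a median of -0.07 and 0 called. Of the 7 cyclins and kinases of G1, 1 (14.3%) was below 0 on both arrays, and the list's median of -0.03 was above 0 on array 1 (0.03) and below 0 on array 2 (-0.10). Of 15 measurable cell cycle inhibitors 4 (26.7%) were below 0 on both arrays, with a median of -0.02. The shares of these short lists were near that of all genes. No list was tested against another.

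**Figure D2:**
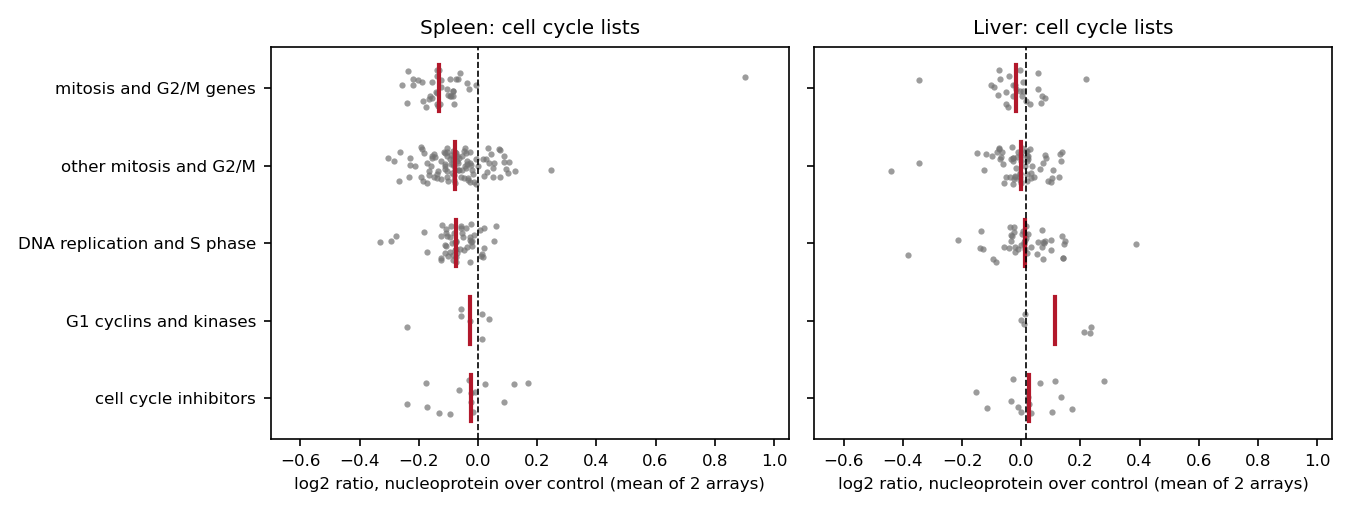
Mean log2 ratio over both arrays of an organ for each measurable gene of 5 cell cycle lists, with the list median as a red bar and the median over all genes as a dashed line. In spleen the medians of the mitosis, other mitosis and S phase lists lie left of the dashed line, at -0.13, -0.08 and -0.07. In liver they lie at -0.02, -0.0016 and 0.01.

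Markers of other tissues and cell types moved with diet in the same spleen pools, and their part in the ratios of the mitotic genes was not tested. All 18 pancreatic acinar markers were below 0 on both spleen arrays and 15 were called lower, and their summed level was 27288 to 28496 in the control channels and 11618 to 12844 in the nucleoprotein channels. Of 18 measurable hepatocyte markers 9 were called higher, with summed levels of 2781 to 2982 with control and 6217 to 6474 with nucleoprotein and with the defining marker Ttr not well above background. Of these 18, 7 were measurable only through the nucleoprotein pool, where all but Cyp3a11 were the brighter on both arrays, and the called Fga is among them. The lists for cells resident in spleen had smaller medians. The medians were -0.02 for 11 B cell, -0.09 for 13 T and NK cell, -0.08 for 6 germinal centre B cell, -0.09 for 7 plasma cell, -0.03 for 12 erythroid and -0.0045 for 7 macrophage markers, with 0 called in any of these lists. Their shares below 0 on both arrays were, in that order, 45.5%, 46.2%, 50%, 57.1%, 33.3% and 28.6%, against 19.9% of all genes. A lean below 0 in spleen was thus not particular to the cell cycle lists. The cell type lists are short, however, and the set's own share was 76.9%, with a median of -0.13. The erythroid and macrophage shares lay nearest to that of all genes. The 11 neutrophil markers had a median of 0.17, with 8 above 0 on both arrays, against 20.4% of all genes. Summed levels overlapped between diets for the germinal centre, erythroid and macrophage lists. They did not overlap, and were lower with nucleoprotein, for T and NK cell markers (24541 to 24817 with control, 23187 to 24431 with nucleoprotein) and plasma cell markers (24961 to 28978 with control, 21579 to 23497 with nucleoprotein). They did not overlap, and were higher with nucleoprotein, for neutrophil markers (47001 to 54560 with control, 57279 to 59408 with nucleoprotein). B cell sums overlapped, at 47292 to 50132 with control and 46191 to 47767 with nucleoprotein. Each range spans only the dye-swapped channels of what was taken as 1 pool per diet, and a sum weighs the brightest markers most. How often sums of other genes fail to overlap between diets was not counted. The gaps for T and NK cell, plasma cell and neutrophil markers are therefore not read as changes in these cells.

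**Figure D3:**
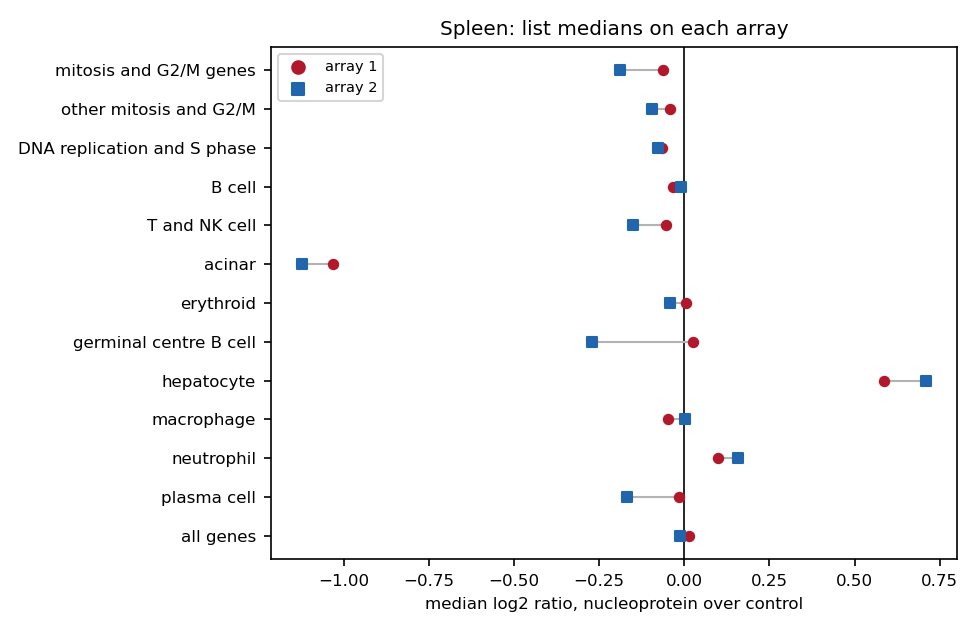
Median log2 ratio of nucleoprotein over control in spleen for the mitotic genes, related cell cycle lists, cell type marker lists and all genes, on array 1 (circles) and array 2 (squares). The mitotic genes lie at -0.06 and -0.19, far from the acinar markers at -1.03 and -1.12 and the hepatocyte markers at 0.59 and 0.71.

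In liver the set showed no common direction. Here 27 of 40 genes were measurable, 24 of them in both diets, and 13 were not, among them Ccnb1, Aurkb, Bub1, Cenpa and Kif11. Ratios were below 0 on both arrays for 7 of 27 genes (25.9%), against 13.6% of the 16406 genes measurable in liver, and above 0 on both for 5, against 20.5%. Of the 27, Top2a, Foxm1 and Nusap1 were measurable only through the nucleoprotein pool. The mean was below 0 for 16 of 27, against 41.6% of all genes, and the median was -0.02 (-0.0045 on array 1 and -0.05 on array 2), against 0.01 over all genes. The call rule took 0 genes of the set as higher, with a background of 0.0122%, and 0 as lower, with a background of 0.317%. The split of all liver calls was 2 higher and 52 lower, and 28 higher and 106 lower from the authors' deposited log ratio. The SD over the arrays exceeded the distance of the mean from 0 for 19 of the 27 genes. All 18 acinar markers were called lower in liver, with summed levels of 118194 to 121450 with control and 6695 to 7013 with nucleoprotein, and their part in these ratios was not tested. The hepatocyte markers had medians of 0.50 on array 1 and -0.48 on array 2, opposite in sign between the dye orientations.

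The lowest liver mean belonged to Tpx2, with -0.20 and -0.49 (mean -0.34 ± 0.21), below 0 on both arrays and short of the bound. Its levels were 8.15 and 8.28 with control and 7.96 and 7.78 with nucleoprotein, so both nucleoprotein channels lay below both control channels. Ccnf followed with 0.0074 and -0.21 (mean -0.10 ± 0.15) and Cenpe with -0.20 and 0.02 (mean -0.09 ± 0.16), each inside its SD. The highest liver mean was that of Kif22, at -0.01 on array 1 and 0.45 on array 2 (mean 0.22 ± 0.33), which rests on array 2. Ccnb2 had 0.10 and 0.06 (mean 0.08 ± 0.03). For the other genes of mitotic control, Cdk1 had 0.02 and -0.12, Plk1 0.09 and -0.09, Bub1b -0.04 and 0.08, and Cdc20 -0.02 and -0.14. Prc1 had -0.14 and 0.14, Top2a 0.09 and 0.03, Mki67 0.0033 and -0.06, Foxm1 0.0090 and 0.10, and Birc5 0.07 and 0.06. Cdc20 thus lay below 0 on both arrays, and Top2a, Foxm1 and Birc5 above 0 on both. The other genes below 0 on both liver arrays were Mad2l1 with -0.06 and -0.08, Incenp with -0.06 and -0.05, Pttg1 with -0.07 and -0.09, Ect2 with -0.0051 and -0.09, and Kif4 with -0.0045 and -0.0066. Over the 27 genes the arrays had a Pearson r of 0.01 and a Spearman rho of -0.24, again as a description across genes.

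Of the 27 genes measurable in both organs, the spleen mean was below the liver mean for 24, against a background of 55.8% of the 15317 genes measurable in both. This difference between organs has no known replicate pools behind it and was not tested. Ccnb2, Birc5, Top2a and Foxm1 had both spleen arrays below 0 and both liver arrays above 0, a pattern whose share over all genes is not given here. Of these, Top2a and Foxm1 were measurable in liver only through the nucleoprotein channels, with 1 of their 2 control channels well above background, and the liver mean of Top2a was -0.0093 as the median over its probes.

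The transcripts of the set were far brighter in spleen than in liver. An organ difference was counted when all 4 channels of an organ lay above all 4 of the other and the means differed by over 1 on the log2 scale. By this rule, among genes measurable in at least 1 organ, 28 of 39 were brighter in spleen and 1 was brighter in liver. The background was 19.7% brighter in spleen and 14.7% in liver, of 18975 genes. The median of spleen minus liver was 1.75, against 0.09 over all genes. Of the 39 genes, 27 were measurable in both organs, and the others entered through spleen alone, where they were the brighter. Without a background filter the counts were 28 and 1 of 40, against 3747 and 2785 of 27396 genes. The 4 channels of an organ come from 2 arrays, taken to hold 1 pool per diet, so they are not independent and no test was made. Without scaling between arrays the counts for the set were 33 and 0, and the split of all genes went from 3747 brighter in spleen and 2785 in liver to 6432 and 1799.

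Birc5 had the largest gap, with spleen channels at 11.78 and 11.64 (control) and 11.71 and 11.57 (nucleoprotein) and liver channels at 8.14, 8.27, 8.22 and 8.33 in the same order, a difference of 3.44. Mki67 had 11.27, 11.03, 10.90 and 10.96 in spleen and 7.85, 8.06, 7.85 and 8.00 in liver, a difference of 3.1. Incenp had 11.39, 11.41, 11.36 and 11.17 in spleen and 8.29, 8.29, 8.23 and 8.24 in liver, a difference of 3.07. In each, the organs were separated by far more than the channels of an organ or the diets. Cdk1 had mean levels of 8.41 ± 0.08 in spleen and 6.64 ± 0.06 in liver (SD over 4 channels), and Plk1 had 9.43 ± 0.13 and 6.94 ± 0.07. For 8 genes measurable in spleen, 0 liver channels were well above background, so their organ difference is a bound. Each bound was taken against the higher of the probe's own signal and the dimmest signal well above background on that channel. Spleen was at least 3.04-fold brighter for Ccnb1, at least 2.71-fold for Aurkb and at least 2.42-fold for Bub1, and the least was Cdc25c, at least 1.18-fold. These bounds come from loess-corrected single channels and are open to dye bias.

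Ccnf and Pttg1 did not share this pattern. Ccnf, a cyclin that acts in a ubiquitin ligase and not with a kinase, was the gene brighter in liver, with spleen channels from 6.93 to 7.16 and liver channels from 8.21 to 8.42, a difference of -1.25. Pttg1 had spleen channels from 13.00 to 13.36 and liver channels from 13.45 to 13.62. Its spleen and liver channels did not overlap, but the difference of -0.34 did not reach the bound. Kif22 also differed little, at 10.30 ± 0.13 in spleen and 9.69 ± 0.19 in liver (SD over 4 channels). Levels of different probes are not comparable as amounts of RNA, so only the difference between organs is read for each gene.

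**Figure D4:**
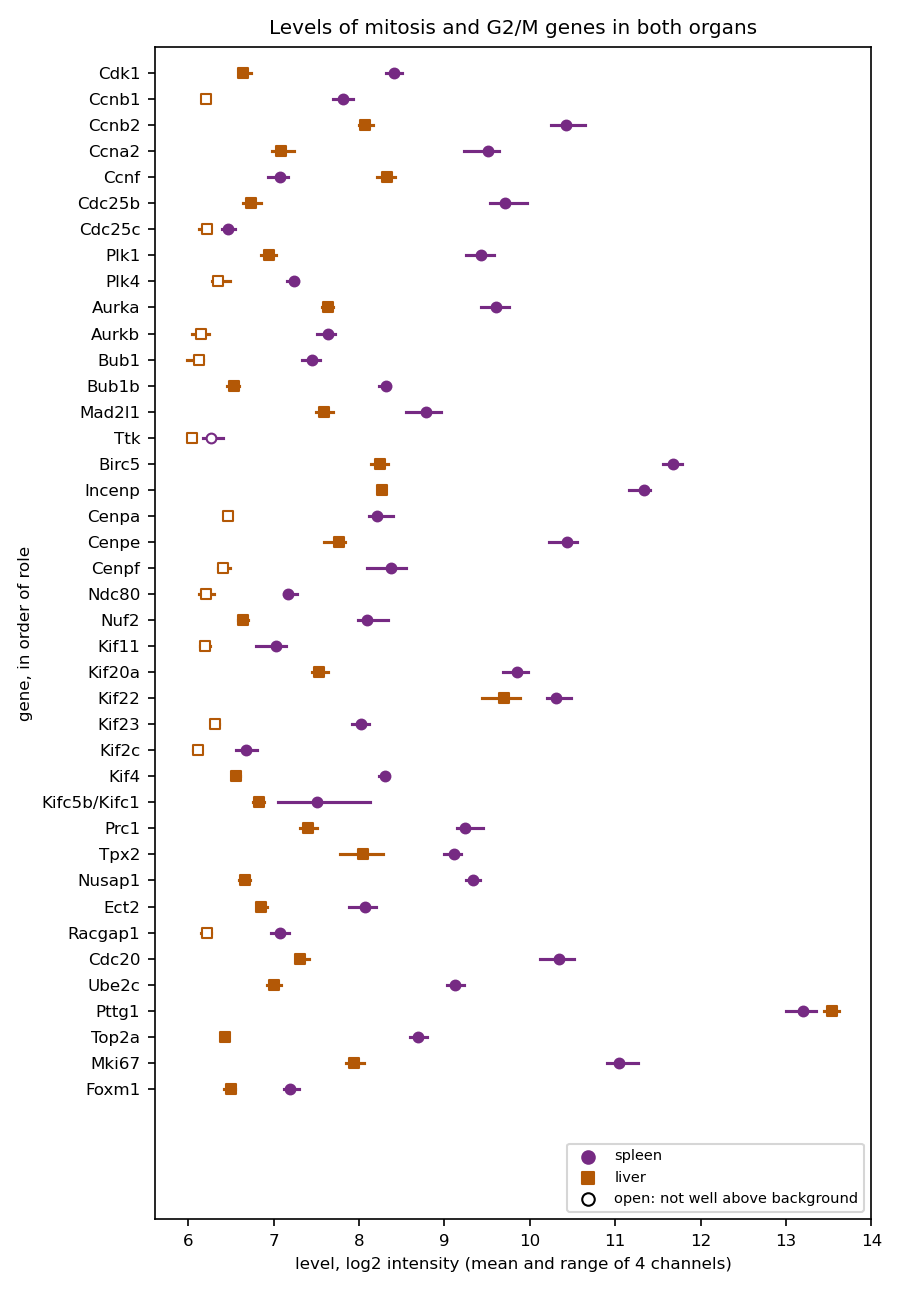
Mean log2 intensity of each gene of the set in spleen (circles) and liver (squares), with the range of the 4 channels of an organ as a line and open symbols where the gene was not measurable in that organ. Spleen lies to the right of liver for nearly all genes, with Ccnf and Pttg1 reversed.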

How the data were processed

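Liver and spleen RNA pools of mice fed a nucleoprotein or a control diet were compared on 4 Agilent 2-colour arrays. The submitters' processing notes name Agilent Feature Extraction, version 9.5.3.1, for quantifying the spots. The intensity values used are the mean and background signals of each channel, which the authors deposited as scanner output, not normalized between arrays. The log10 ratio of red over green is Feature Extraction's own, per the file headers, and served as an alternative. The dye of each pool was taken from the labels.

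From the intensities, limma 3.58.1 in R 4.3.3 applied normexp background correction (offset 50) and loess within each array, with control spots at weight 0. Log ratios were turned to nucleoprotein over control, and channel levels were scaled with Aquantile. Spots flagged as outliers (189 to 354 gene spots per array) were left out, spots of a probe were averaged, and a gene was represented by its probe of highest mean intensity over the 4 arrays. Of 41174 probes, 22951 were named through a RefSeq accession, 9768 through a current name or synonym, and 8455 kept the name in the files. The set had 66 probes, with several for 20 genes, and 0 genes had probes past the bound in opposite directions.

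No test was fitted, since each organ was taken to hold 1 pool per diet and the 2 arrays differ in dye. The ratio of dye-swapped arrays was averaged with equal weight. The number of arrays limits the precision. The procedure was checked by putting known changes into bright probes of the real arrays. That check compares runs with and without the changes, so it does not measure array noise, and it did not cover dim probes. Genes named by rule were the called genes of the set, the 3 lowest and 3 highest means per organ, the 3 largest organ differences and a list of anchor genes. In spleen the ratios of the other measurable genes of the set are also given, beside their role. Elsewhere most others are given by count or range. The genes of the set, the other lists and the marker lists were chosen with earlier results of these data known. Alternatives were another offset (10), median centring, the deposited log ratio, the median over probes, stricter and no background filters, a 1.2-fold bound, no scaling between arrays and each array alone. The authors' processed value table was not used here.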

Additional observations from a re-analysis of the deposited data

Results flagged for a closer look

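For 4 genes every spleen array lay below 0 and every liver array above 0, and the difference between organs was not tested. The share of all genes that did so is not given here, so the 4 are not read as a result about the set. In the set 30 of 39 genes were below 0 on both spleen arrays, and 5 of 27 were above 0 on both liver arrays. Spleen minus liver of the mean log2 diet ratio was -0.22 for Ccnb2, -0.14 for Birc5, -0.15 for Top2a and -0.15 for Foxm1. In liver, Top2a and Foxm1 were measurable only through the nucleoprotein pool, where they were the brighter, and 1 of their 2 control channels was well above background. The array 1 liver ratio of Foxm1 was 0.0090, and the liver ratio of Top2a was -0.0093 as the median over its probes. None of these ratios passed the 1.5-fold bound in either organ.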

How the results depend on the processing

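Of 57 recalculations of the summary results, 50 stayed within the SD of the arrays (for a value) or 1.5 times the count. Of 258 for single genes 226 stayed within the SD of their arrays, which is often as wide as the value, and 20 had the other sign, 3 of 144 in spleen and 17 of 114 in liver. Under median centring the spleen set had 0 called genes and 0 below 0 on both arrays, and the liver set had 1 below 0 on both arrays and a median of 0.030, where the median over all liver genes was 0.17. From each liver array alone, 16 to 18 genes were below 0 (1 array has to agree instead of 2, among 31 measurable genes), with medians of -0.058 to -0.0045. From each spleen array alone, 34 to 36 of 40 genes were below 0, with medians of -0.19 to -0.06. Under all other settings the spleen set had 27 to 32 genes below 0 on both arrays. At the 1.2-fold bound 1 gene was called in spleen and 0 in liver, while calls over all genes became 96 higher and 133 lower in spleen and 30 and 131 in liver. Calls over all spleen genes were 66 higher and 54 lower with an offset of 10, and 102 and 81 from the deposited log ratio. In liver they were 28 and 106 from the deposited log ratio, 0 and 32 under median centring, and 31 and 260 or 196 and 100 from each array alone, and in spleen 52 and 88 or 61 and 59. The count of genes brighter in spleen than liver ran from 22 to 36. Dim signal limited liver, where 13 genes of the set were not measurable. No paired analysis was possible because no test was fitted: each array already sets the pools against each other, and the labels do not settle whether the sample numbers name separate pools.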
